A study of Mus musculus with 8 samples.

Results

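The genes examined here encode the factors that start and drive protein synthesis in the cytoplasm, the eukaryotic initiation factors (symbols Eif1 to Eif6 and their subunits, kinases and binding proteins) and the elongation factors (Eef1 and Eef2 with their modifying enzymes). A gene was included when its symbol began with Eif1 to Eif6, Eef1 or Eef2 and its mean over all 8 libraries was at least 5 CPM (counts scaled to the library's total in named genes). Of 53655 symbols counted, 78 had such a name and 60 reached that level, 49 of them initiation factor genes and 11 elongation factor genes. The lowest to be included was Eef2kmt at 5.01 CPM, and the highest to be left out was Eif2ak3, the eIF2 kinase of the endoplasmic reticulum, at 4.55 CPM. The 18 symbols left out included 8 with a pseudogene name.

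Initiation begins when eIF2 delivers the initiator tRNA to the small ribosomal subunit together with eIF1, eIF1A, eIF5 and the large eIF3 complex. The eIF4 factors bind the cap of the mRNA and unwind its leader, eIF5B joins the large subunit, and eEF1 and eEF2 then deliver aminoacyl-tRNAs and move the ribosome along. Messenger RNAs of ribosomal proteins and of several of these factors carry a pyrimidine tract at their very start, the TOP element, through which TOR signalling and the protein LARP1 control them as a group.

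All libraries came from tuft cells, chemosensory epithelial cells that make the cytokine IL-25, of the small intestine of naïve mice. Every animal had the genotype Il25-RFP/+;Chat-GFP(Tg+), that is, 1 Il25 allele tagged with a red fluorescent protein plus a transgene that makes cells using Chat green, Chat being the gene of the acetylcholine-making enzyme. CD45-negative, EPCAM-positive, RFP-positive cells were sorted without GFP (Chat-neg, 4 libraries) or with GFP (Chat-pos, 4 libraries), so the groups differ by reporter signal and not by genotype. Age and the animal behind each library are not given in the labels, so each p-value reflects library-to-library spread alone, some of which may be technical. The question was how the tuft cells with and without Chat reporter signal differ, and here whether the factor genes were lower in Chat-pos as the ribosomal protein genes were.

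Counts in named genes ran from 87642 to 1176880 in Chat-neg and from 1757401 to 2541955 in Chat-pos. Chat-neg replicate 1 was the shallowest and held 405 counts over all 60 factor genes, against 4328 to 6879 in the other Chat-neg and 8501 to 13927 in the Chat-pos libraries. All 12 tuft cell markers examined were detected, and their summed share was 1.00% to 1.75% of counts in Chat-neg and 2.17% to 2.27% in Chat-pos. Paneth cell markers (11 genes) took 5.76% and 3.22% in Chat-pos replicates 2 and 3 and at most 0.358% elsewhere. Goblet cell markers (7 genes) ranged from 0.0502% to 0.544% in Chat-neg and from 0.0286% to 0.147% in Chat-pos. Enterocyte markers (9 genes) ranged from 2.12% to 4.68% and from 3.23% to 5.14%, and enteroendocrine markers (8 genes) from 0.0582% to 0.168% and from 0.117% to 0.176%. Intraepithelial lymphocyte markers (9 genes) lay between 0.0210% and 0.0455% in Chat-neg, at 0.0408% in Chat-pos replicate 2 and at most at 0.00137% in the other Chat-pos libraries. Stem and cycling markers (10 genes) were highest in Chat-neg replicate 4 (0.131%) and Chat-pos replicate 3 (0.120%). No marker of any of these lists was at 0 in all libraries, and the part of other cell types in the results below was not tested.

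To show what a pyrimidine-rich start looks like among these genes, 30 bases around RefSeq transcription starts are printed below (GRCm38.p6, sense strand, 10 bases before the start and 20 from it onward), with every run of at least 8 C or T letters in capitals. The first 4 genes hold such a run, the next 5 are those among the genes that passed the test between the gates which have a RefSeq entry, and Rpl27a and Rpl35 are the ribosomal protein genes with the longest runs.
Eef1a1, chr9:78481705-78481734, minus strand: ctccgCCCTCTTCCCgagggtgggggagaa
Eif3f, chr7:108934405-108934434, plus strand: tctaggCTCTCTCTCTTTCTCggcaagatg
Eif3l, chr15:79075213-79075242, plus strand: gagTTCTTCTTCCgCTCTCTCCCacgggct
Eif2s3x, chrX:94212632-94212661, minus strand: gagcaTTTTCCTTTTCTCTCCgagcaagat
Eif1, chr11:100319939-100319968, plus strand: ggcgtcacaggggcggctatataagtgaat
Eif4a2, chr16:23107458-23107487, plus strand: gaaaccccgtaggagcagggcggccgagga
Eif2s2, chr2:154892887-154892916, minus strand: aaggttggctttactgtacgcctgcgcttt
Eif4b, chr15:102073763-102073792, plus strand: tcccgtcggacgccgcgccaccccctcgcg
Eif4ebp2, chr10:61452650-61452679, minus strand: cgcagcgggacgaccgggcgagagcaggcg
Rpl27a, chr7:109519185-109519214, plus strand: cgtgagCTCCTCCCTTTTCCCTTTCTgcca
Rpl35, chr2:39005112-39005141, minus strand: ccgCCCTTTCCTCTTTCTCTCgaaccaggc
Such a run stood at an annotated start of 9 of the 48 factor genes with an entry (18.8%), of 24 of 57 ribosomal protein genes (42.1%) and of 13% of all 27025 RefSeq symbols. The search read the sense strand alone, since the element is read in the RNA, and annotated starts can lie some bases away from the start used in these cells.

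Set side by side, the factor genes were not lower as a group to the extent that the ribosomal protein genes were. In each library the 60 factor genes took 0.462%, 0.575%, 0.585% and 0.709% of counts for Chat-neg (replicates in order), against 0.484%, 0.535%, 0.579% and 0.548% for Chat-pos. These ranges overlap: the highest and the lowest share were both in Chat-neg. Ribosomal protein genes (78 symbols) took 1.82%, 2.72%, 2.501% and 3.75% for Chat-neg, against 1.49%, 1.48%, 1.31% and 1.40% for Chat-pos, with no overlap. For each ribosomal protein count there were 0.254, 0.211, 0.234 and 0.189 factor counts for Chat-neg, against 0.325, 0.361, 0.441 and 0.390 for Chat-pos. Every Chat-pos library was thus above every Chat-neg library in that ratio, with means of 0.379 ± 0.0491 against 0.222 ± 0.0284 (SD, n = 4 each). Summed stem and cycling markers were highest in Chat-neg replicate 4, which had the highest share of both groups of genes. The sum was nearly as high in Chat-pos replicate 3, which had the lowest ribosomal protein share. It hides differences within the list. Mki67, Mcm5 and Mcm6, its genes of smallest p, were at 61.0, 56.2 and 46.5 CPM in Chat-neg replicate 4. In Chat-pos replicate 3 they were at 16.5, 7.09 and 8.98 CPM. The part of cycling cells in the ribosomal protein shares was not tested. In sorted populations such as these, fewer cells that express a gene and less RNA of it per cell cannot be told apart.

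**Figure D1:**
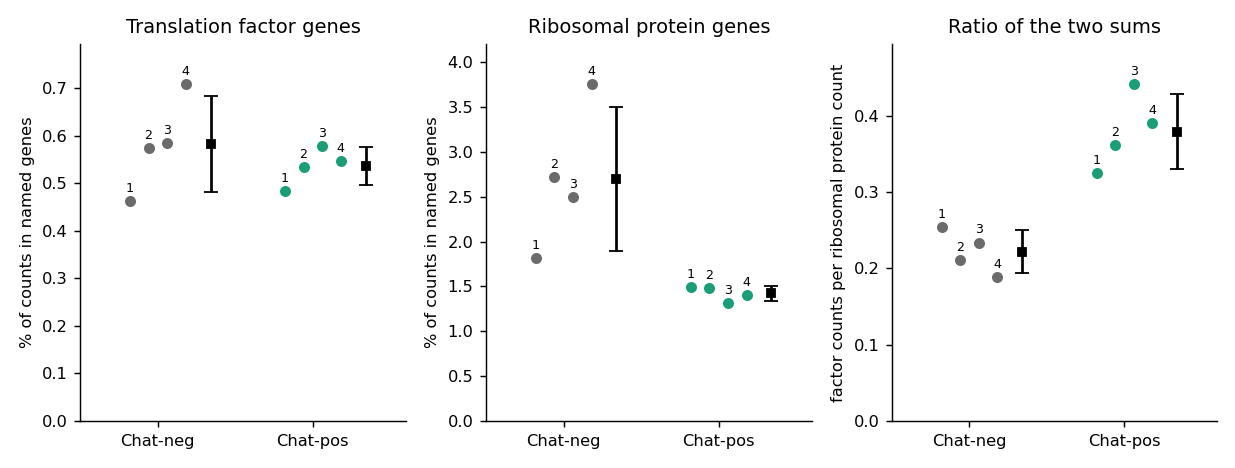
Share of counts in translation factor genes (left) and ribosomal protein genes (middle), in percent of counts in named genes, and the ratio of both sums (right), for 4 Chat-neg (grey) and 4 Chat-pos (green) libraries numbered by replicate; black squares and bars are the mean and SD. The factor shares overlap between the gates, while the ribosomal protein shares and the ratio do not.

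Tested gene by gene, 57 of the 60 factor genes passed the filter on low counts. With edgeR, at an adjusted p under 0.05, 4 of these were lower and 2 higher in Chat-pos, which is 7.02% and 3.51%, against 2.87% lower and 3.62% higher among all 8919 genes tested. Among 77 ribosomal protein genes tested, 53 were lower with edgeR, 51 with DESeq2, 58 with limma-voom and 67 at an unadjusted p under 0.05, and none was higher by any of these. For the factor genes the counts were 4 lower and 2 higher with DESeq2 (3.52% and 8.65% of the 5459 genes it gave an adjusted p), and 7 and 2 with limma-voom (4.51% and 3.98% of all genes tested). At an unadjusted p under 0.05, 14 factor genes were lower and 3 higher (9.88% and 10.9% of all genes tested). The median log2 difference, Chat-pos minus Chat-neg, was -0.28 for the factor genes, -0.97 for the ribosomal protein genes and -0.02 for all genes. A difference below 0 was seen in 40 of 57 factor genes (70.2%), in 77 of 77 ribosomal protein genes and in 51.5% of all genes. With total count scaling, which shifts the median of all genes to -0.14, 8 factor genes were lower and 1 higher, against 4.26% and 2.52% of all genes. Chat-pos was below Chat-neg in every library for 7 of the 57 (background 5.42%) and above it for 3 (background 8.58%).

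**Figure D2:**
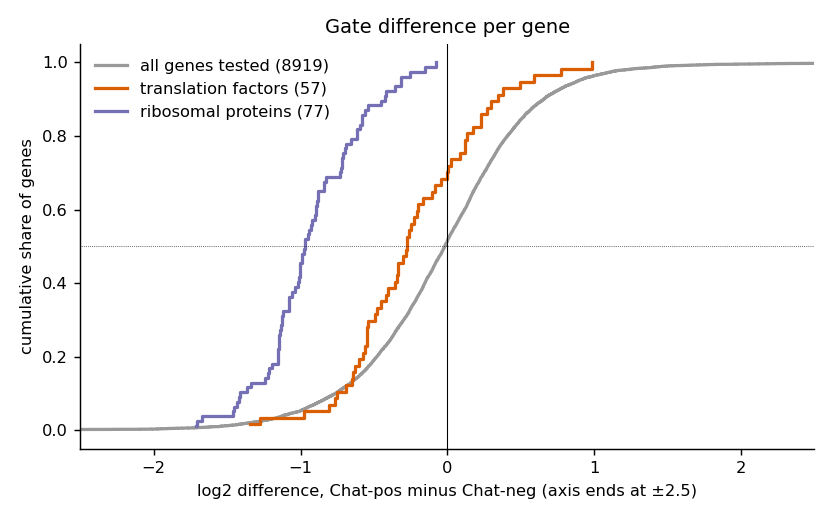
Cumulative share of genes by log2 difference between the gates, for 57 translation factor genes (orange), 77 ribosomal protein genes (violet) and 8919 genes tested in all (grey), with the axis ending at ±2.5 and the dotted line at the median. The orange curve crosses it at -0.28, between all genes at -0.02 and ribosomal protein genes at -0.97.

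A direct form of the question takes the summed count of the ribosomal protein genes as each library's size, so that a gene that moves with them has a difference of 0. On this scale 54 of 57 factor genes were above 0 with a median of 0.65, 24 passed as higher and 0 as lower (edgeR, adjusted p under 0.05; none was lower at an unadjusted p under 0.05 or with limma-voom). The share of 42.1% higher compares with 47.7% of all genes tested, whose median was 0.86. Factor genes were thus higher relative to ribosomal protein genes about as often as genes in general. The 13 factor genes past 2-fold on it were Eif1, Eif4a2, Eif2b1, Eif6, Eif5a, Eif3i, Eif1ad, Eif5, Eif2ak4, Eif4e, Eif4a3, Eef2k and Eef1e1. They ran from 1.83 ± 0.21 (SE) in Eif1 to 1.05 ± 0.33 in Eef1e1. The share of all genes past 2-fold was not counted, so this list does not set factor genes apart. With Chat-pos replicates 2 and 3, the libraries rich in Paneth cell transcripts, left out, 13 of 58 factor genes were higher and 0 lower on this scale, against 29.2% and 0.454% of all genes. Without those libraries Eif1 was the 1 factor gene to pass on the standard scale, and 20 ribosomal protein genes were lower. Of all genes 0.952% were lower and 2.66% higher there. That fit kept only replicates 1 and 4 of Chat-pos. Its standard-scale medians were -0.22 for factor genes and -0.84 for ribosomal protein genes, against -0.28 and -0.97 with all libraries. The part of the smaller group in the lost calls was not tested.

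Start codon selection held both the largest rise and the fall with the smallest p. Eif1, whose product keeps the scanning ribosome open until the start codon is found, lies on the plus strand of chromosome 11 at 100319885 to 100322096 (GRCm38). Its levels were 209, 385, 445 and 383 CPM in Chat-neg replicates 1 to 4 and 688, 732, 724 and 756 CPM in Chat-pos replicates 1 to 4. All Chat-pos libraries were higher than all Chat-neg libraries, and the lowest value, in Chat-neg replicate 1, rests on 18 counts. The means were 725 ± 28.2 CPM against 356 ± 102 CPM (SD, n = 4 each). The log2 difference was 0.99 ± 0.22 (SE; edgeR adjusted p = 0.00481). Per kilobase of exon Eif1 was also the most abundant factor gene in both gates, at 346 CPM per kb in Chat-pos and 170 CPM per kb in Chat-neg. Of the words of 74 bases in its transcripts, 17.1% also occur in transcripts of other annotated genes, so the placement of those reads is uncertain.

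Eif2s2 encodes the beta subunit of eIF2 and lies on the minus strand of chromosome 2 at 154871410 to 154892935. It fell from 163, 206, 230 and 215 CPM in Chat-neg to 116, 110, 126 and 126 CPM in Chat-pos (log2 difference -0.80 ± 0.19, edgeR adjusted p = 0.0092), with no overlap between the gates. On the ribosomal protein scale its difference was 0.04 ± 0.23. Its partner Eif2s1, the alpha subunit that stress kinases phosphorylate, stood at 54.1 ± 16.7 CPM in Chat-neg and 49.7 ± 24.9 CPM in Chat-pos and did not pass (-0.23 ± 0.32, edgeR adjusted p = 0.753). The gamma subunit gene Eif2s3x was too low to be tested, at 6.91 to 11.6 CPM in Chat-neg and 3.73 to 6.27 CPM in Chat-pos.

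The other genes of this step did not pass the test. Eif5, the GTPase activator of eIF2, stood at 222 ± 38.4 CPM in Chat-neg and 279 ± 24.3 CPM in Chat-pos (0.30 ± 0.20, edgeR adjusted p = 0.431). Eif5b, which catalyses subunit joining, had -0.55 ± 0.22, Eif1a had -0.65 ± 0.26 and its X-linked relative Eif1ax -0.40 ± 0.22. Eif1a did not overlap between the gates, with 52.9 to 116 CPM in Chat-neg and 30.5 to 42.1 CPM in Chat-pos. Eif1b, the close relative of Eif1, had 39.9 ± 17.4 and 43.6 ± 2.94 CPM and a difference of -0.0008. Eif1ad, at 45.4 ± 16.2 and 58.5 ± 6.28 CPM, had 0.23 ± 0.24 (edgeR adjusted p = 0.659), Eif2a at -0.50 and Eif2d, a factor of alternative initiation, at -0.55. In all, 1 of 11 tested genes of this role was lower and 1 higher, and 8 were below 0. Of all genes tested 2.87% were lower and 3.62% higher with edgeR, and 51.5% were below 0.

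The exchange factor eIF2B, which recharges eIF2 with GTP, had 5 genes tested. None passed with edgeR, DESeq2 or limma-voom, and 1 was lower at an unadjusted p under 0.05. Their differences ran from -0.77 in Eif2b3 to 0.59 in Eif2b1, with a median of 0.01. Eif2b4 and Eif2b2, the most abundant per kilobase, stood at 43.8 ± 19.2 and 24.3 ± 5.31 CPM in Chat-neg and at 49.6 ± 20.2 and 25.6 ± 4.03 CPM in Chat-pos. Eif2b4 shows how far libraries of a gate can lie apart, at 76.5 CPM in Chat-pos replicate 1 and 33.7 CPM in replicate 4. Eif2b1, at 18.1 ± 7.43 and 30.6 ± 8.96 CPM (edgeR adjusted p = 0.336), was higher on the ribosomal protein scale by 1.48 ± 0.39 (edgeR adjusted p = 0.00248). On that scale the median of all genes was 0.86, and 47.7% of them passed as higher.

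The eIF2 kinases switch initiation down under stress. None of the 3 tested passed with edgeR, DESeq2 or limma-voom, nor at an unadjusted p under 0.05. Eif2ak2 (PKR, the sensor of double-stranded RNA and itself an interferon target) stood at 45.8 ± 8.84 CPM in Chat-neg and 41.1 ± 13.6 CPM in Chat-pos. Eif2ak1, the haem-regulated kinase, stood at 30.3 ± 5.64 and 21.0 ± 5.98 CPM (-0.48 ± 0.33, edgeR adjusted p = 0.443). Eif2ak4 (GCN2, which senses uncharged tRNA) stood at 25.01 ± 2.36 and 30.2 ± 9.62 CPM (0.23 ± 0.32, edgeR adjusted p = 0.749).

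Of the eIF3 complex, the scaffold between mRNA and small subunit, 13 genes were tested and 11 were below 0, with a median of -0.42. None passed with edgeR or DESeq2, while 5 were lower at an unadjusted p under 0.05 and 2, Eif3c and Eif3j1, were lower with limma-voom, criteria that 9.88% and 4.51% of all genes met. Eif3c held 81.4, 121, 127 and 112 CPM in Chat-neg and 76.5, 77.1, 80.3 and 79.1 CPM in Chat-pos. Its gates did not overlap, yet Chat-neg replicate 1 came close to Chat-pos (-0.56 ± 0.20, edgeR adjusted p = 0.0973). Eif3j1, whose product sits loosely on the complex, had the lowest difference of all factor genes, -1.34 ± 0.44 (edgeR adjusted p = 0.0612), at 23.3, 14.0, 30.2 and 17.6 CPM in Chat-neg and 5.60, 12.1, 9.45 and 5.89 CPM in Chat-pos. It shares 51.1% of its 74-base words with other genes.

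Eif3k and Eif3i were the most abundant eIF3 genes per kilobase and had differences of opposite sign. Eif3k stood at 216 ± 47.0 CPM in Chat-neg and 166 ± 14.9 CPM in Chat-pos (-0.33 ± 0.20), and Eif3i at 178 ± 30.02 and 228 ± 22.1 CPM (0.34 ± 0.20), neither past the test. Whether these 2 genes differ from each other was not tested. On the ribosomal protein scale the median of all genes was 0.86, and 47.7% of them passed as higher. Eif3i was higher there by 1.20 ± 0.22 (edgeR adjusted p = 6.9e-05), while Eif3k had 0.49 ± 0.24 and did not pass. The rest, Eif3a, Eif3b, Eif3d, Eif3e, Eif3f, Eif3g, Eif3h, Eif3l and Eif3m, ran from -0.60 (Eif3d) to 0.02 (Eif3g). Eif3f and Eif3l, with the C/T runs printed above, had -0.54 ± 0.21 and -0.42 ± 0.21.

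Among the cap-binding and helicase factors 1 of 11 genes rose and 1 fell, and the median was -0.08. Of all genes tested 3.62% rose and 2.87% fell with edgeR. Eif4a2, a paralogue of the RNA helicase Eif4a1, lies on the plus strand of chromosome 16 at 23107444 to 23114136. Its levels were 58.2, 93.0, 99.3 and 94.7 CPM in Chat-neg and 108, 147, 191 and 180 CPM in Chat-pos. Each Chat-pos library was above each Chat-neg library (0.77 ± 0.22, edgeR adjusted p = 0.0277). Its exons overlap those of Rfc4 and of snoRNA genes, and reads there cannot be assigned by strand. Eif4a1 stood at 65.2 ± 18.4 CPM in Chat-neg and 65.1 ± 10.6 CPM in Chat-pos (-0.08 ± 0.24, edgeR adjusted p = 0.893), but 63.0% of its 74-base words occur in other annotated genes, so its level is uncertain. Eif4a3, the exon junction helicase, stood at 64.2 ± 36.9 and 77.6 ± 18.9 CPM (0.12 ± 0.27, edgeR adjusted p = 0.852).

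Eif4b, which stimulates the helicase, lies on chromosome 15 at 102073773 to 102097173 on the plus strand. It fell from 34.9, 70.1, 32.8 and 51.3 CPM to 24.9, 30.02, 18.9 and 26.1 CPM (-0.98 ± 0.29, edgeR adjusted p = 0.0358). The gates did not overlap, but Chat-pos replicate 2 lay within 3 CPM of Chat-neg replicate 3. Its difference on the ribosomal protein scale was -0.09 ± 0.32. Eif4h, which has a related function, had -0.21 ± 0.21.

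The cap-binding protein gene Eif4e stood at 37.3 ± 10.5 CPM in Chat-neg and 45.0 ± 15.9 CPM in Chat-pos (0.17 ± 0.29, edgeR adjusted p = 0.793), and its relatives Eif4e2 and Eif4e3 had -0.10 and -0.34. Eif4g2 (DAP5), a relative of the scaffold eIF4G that lacks the cap-binding protein's site, was the most abundant gene of the role per kilobase. It stood at 435 ± 94.6 and 486 ± 51.1 CPM (0.14 ± 0.21, edgeR adjusted p = 0.771). The scaffold genes Eif4g1 and Eif4g3 had -0.34 ± 0.29 and -0.05 ± 0.24.

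Of the proteins that bind eIF4E, Eif4ebp2 fell. This TOR-regulated repressor of cap-dependent initiation lies on the minus strand of chromosome 10 at 61428491 to 61452661. It held 46.5, 39.5, 21.6 and 46.5 CPM in Chat-neg and 16.2, 20.2, 13.2 and 10.1 CPM in Chat-pos (-1.27 ± 0.35, edgeR adjusted p = 0.0245). Its gates came within 2 CPM of each other, through Chat-neg replicate 3, and the value of Chat-neg replicate 1 rests on 4 counts. Eif4ebp1, its better known paralogue, stood at 15.5 ± 3.91 CPM in Chat-neg and 13.2 ± 6.43 CPM in Chat-pos, and Eif4enif1, which carries eIF4E into the nucleus, at 30.9 ± 14.6 and 30.6 ± 4.29 CPM. Neither passed.

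Eif5a, the hypusine-bearing factor that helps ribosomes through difficult peptide bonds, and Eif6, which keeps large subunits apart from small ones, were both above 0. Neither passed with edgeR, DESeq2 or limma-voom, and 1 was higher at an unadjusted p under 0.05. Eif6 had 58.2, 161, 154 and 156 CPM in Chat-neg and 201, 213, 175 and 218 CPM in Chat-pos. All its Chat-pos values were the higher ones, and Chat-neg replicate 1 stood far below the other Chat-neg libraries on 5 counts (0.50 ± 0.22, edgeR adjusted p = 0.176). Eif5a had 175, 149, 146 and 173 CPM against 125, 186, 270 and 241 CPM, with overlap through Chat-pos replicate 1 (0.38 ± 0.22, edgeR adjusted p = 0.355). On the ribosomal protein scale they were higher by 1.38 ± 0.23 (Eif6, edgeR adjusted p = 1.37e-05) and 1.24 ± 0.27 (Eif5a, edgeR adjusted p = 0.000493). All genes tested had a median of 0.86 there, and 47.7% of them passed as higher.

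The genes grouped here under eEF1 and eEF2, of which Eef1a1 and Eef2 are classic TOP messages, had 5 of 6 differences below 0. The 1 above 0 was Eef1e1, which has an eEF1 name but whose product belongs to the tRNA synthetase complex. Eef1a1, the factor that brings aminoacyl-tRNA to the ribosome, held 233, 307, 326 and 597 CPM in Chat-neg and 142, 336, 390 and 364 CPM in Chat-pos. The gates overlapped widely, with the highest library in Chat-neg and the lowest in Chat-pos (-0.28 ± 0.33, edgeR adjusted p = 0.707). Its difference was 0.09 without Chat-neg replicate 4. Of its 74-base words 37.4% occur in other annotated genes, so reads may have been lost or moved between copies. Eef1b2, a subunit of its exchange factor, had 302 ± 110 CPM in Chat-neg and 254 ± 11.1 CPM in Chat-pos (-0.27 ± 0.22), and also turned to 0.06 without Chat-neg replicate 4.

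Eef1d, another exchange subunit, was the elongation factor gene that fell. It lies on the minus strand of chromosome 15 at 75894205 to 75909556, where its exons overlap those of Naprt, and reads there cannot be assigned by strand. Eef1d held 93.1, 155, 136 and 183 CPM in Chat-neg and 112, 71.2, 86.5 and 84.6 CPM in Chat-pos. The gates overlapped, since Chat-neg replicate 1 (8 counts) lay below Chat-pos replicate 1 (-0.75 ± 0.21, edgeR adjusted p = 0.0291). Eef1g, the scaffold of that complex, had -0.64 ± 0.24 (edgeR adjusted p = 0.113), with 56.8% of its words shared with other genes. Eef1e1, a component of the tRNA synthetase complex, stood at 37.3 ± 14.7 and 40.7 ± 8.68 CPM (0.12 ± 0.30, edgeR adjusted p = 0.865).

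Eef2, the translocase, stood at 268, 385, 279 and 364 CPM in Chat-neg and 212, 264, 217 and 188 CPM in Chat-pos. No library overlapped, but 264 and 268 CPM were nearly alike, and the gene did not pass (-0.57 ± 0.20, edgeR adjusted p = 0.0888). It was lower with DESeq2 (adjusted p = 0.0462) and over all alternatives its adjusted p ran from 0.0229 to 0.502. Eef2k, the kinase that halts eEF2, stood at 117 ± 39.6 CPM in Chat-neg and 129 ± 17.1 CPM in Chat-pos (0.27 ± 0.22, edgeR adjusted p = 0.53). Of the methyltransferase genes Eef1akmt1 stood at 33.4 ± 8.14 and 21.3 ± 4.57 CPM (-0.63 ± 0.32, edgeR adjusted p = 0.257), and Eef1akmt2 had -0.25 ± 0.40. Eef1akmt4 and Eef2kmt were too low to be tested, at no more than 16.0 and 9.41 CPM in any library.

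**Figure D3:**
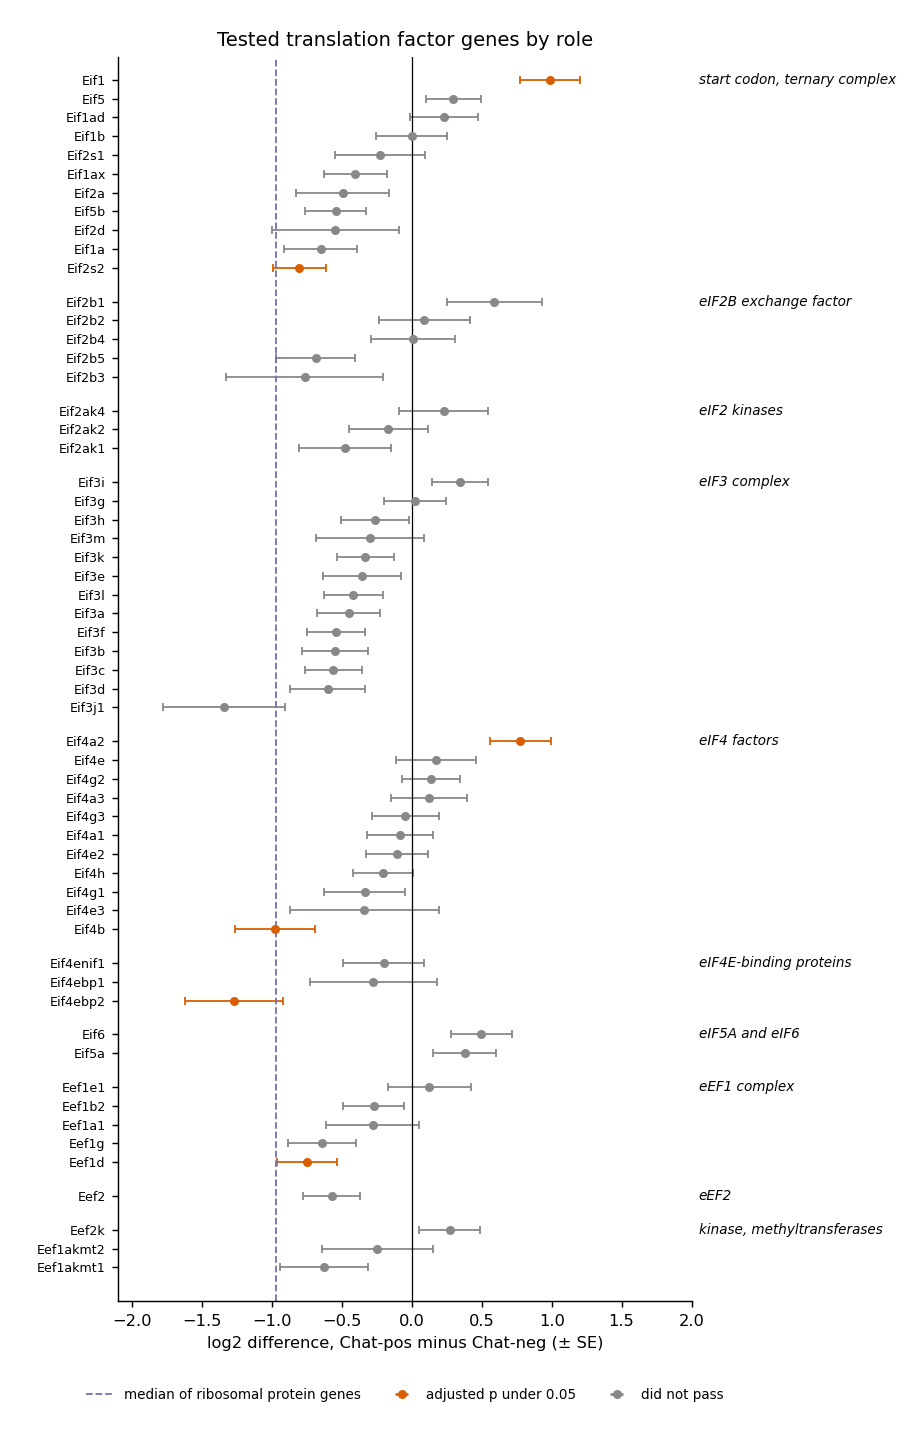
Log2 difference between Chat-pos and Chat-neg with its SE for the 57 tested factor genes, grouped by role; orange points passed the test and the dashed violet line is the ribosomal protein median of -0.97. Eif1 and Eif4a2 stand out to the right, and 3 of the points lie at or left of the dashed line.

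**Figure D4:**
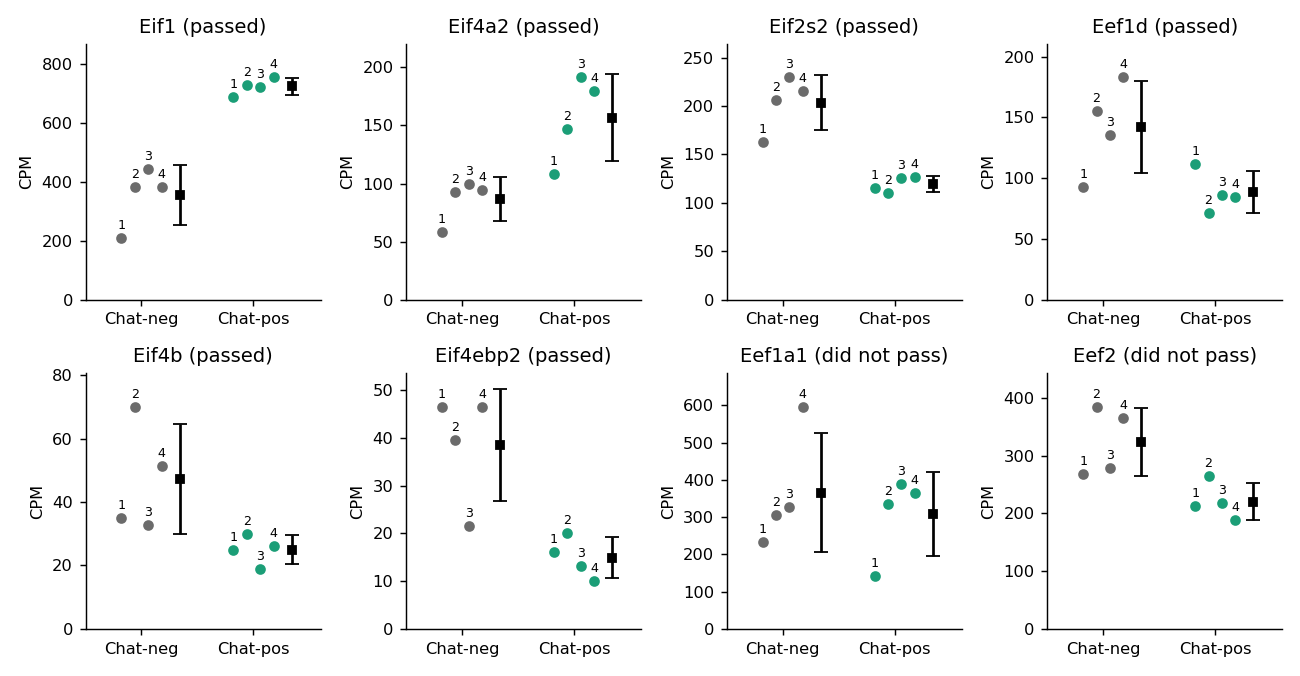
CPM in each of 4 Chat-neg (grey) and 4 Chat-pos (green) libraries, numbered by replicate, for the 6 factor genes that passed and for Eef1a1 and Eef2; black squares and bars are the mean and SD. Eif1 in Chat-pos lies between 688 and 756 CPM, above every Chat-neg library, while Eef1a1 overlaps between the gates.

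The 6 calls differed in how far they depended on single libraries. Eif1 passed in all 8 fits that left out 1 library. Eif2s2 passed in 5 of them, failing when replicate 2 or 3 of Chat-neg or replicate 2 of Chat-pos was missing. Eif4ebp2 passed in 4, failing when replicate 2 or 4 of Chat-neg or replicate 3 or 4 of Chat-pos was missing. Eif4b passed in 3, those lacking replicate 1 or 3 of Chat-neg or replicate 2 of Chat-pos. Eef1d and Eif4a2 passed in 2 each, those lacking replicate 1 of either gate. When a Chat-neg library was dropped, the count of lower factor genes became 7 (replicate 1), 0 (replicate 2), 2 (replicate 3) and 1 (replicate 4). When a Chat-pos library was dropped it became 3 (replicate 1), 2 (replicate 2), 1 (replicate 3) and 1 (replicate 4). Over these 8 fits at most 3.18% of all genes were lower and at most 3.7% higher. Eif1 was the 1 higher factor gene except in the fits lacking replicate 1 of either gate, which had 2. Ribosomal protein genes lower in Chat-pos numbered 32 without Chat-neg replicate 4, and the median of the factor genes lay between -0.34 and -0.19 over these 8 fits.

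Starts, lengths and levels of the factor genes were set beside their differences. The 8 tested genes with a C/T run at a RefSeq start had a median of -0.24 and 0 calls with edgeR, DESeq2 and limma-voom, with 2 lower at an unadjusted p under 0.05. The 37 without a run had a median of -0.25, with 3 lower and 2 higher with edgeR, against 2.87% and 3.62% of all genes tested. The search found a run in 24 of 57 ribosomal protein genes (42.1%) and none at Eef2, a classic TOP message. This split thus cannot separate TOP messages from others. Across the 57 genes, Spearman's rho and Pearson's r of the log2 difference were -0.15 and -0.17 with exon length, and -0.06 and -0.16 with the share of 74-base words found in other genes. With the mean level per kilobase, which rests on the level used to choose the genes, they were 0.30 and 0.40. These are descriptions over genes that share the same 8 libraries. The 24 genes with no shared word had a median of -0.29.

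Values for other genes of translation follow by list. Of all genes tested 2.87% were lower and 3.62% higher with edgeR, 9.88% were lower at an unadjusted p under 0.05, and 51.5% were below 0. Of 7 termination and recycling factor genes tested, none passed with edgeR, DESeq2 or limma-voom (1 lower at an unadjusted p under 0.05; median -0.08). Of 4 genes of poly(A)-binding proteins and their partners none passed with edgeR or DESeq2 (2 lower at an unadjusted p under 0.05, 1 with limma-voom), with Pabpc1, itself a TOP message, at 207 CPM in Chat-neg and 134 CPM in Chat-pos (-0.65 ± 0.21, edgeR adjusted p = 0.0537). Of 22 cytosolic aminoacyl-tRNA synthetase genes 1 fell, Eprs (-1.14 ± 0.24, edgeR adjusted p = 0.00416), and 20 were below 0, with a median of -0.28. Among 6 nascent chain factor genes Rack1, a protein of the small subunit, fell (-0.85 ± 0.23, edgeR adjusted p = 0.0227). In the TOR pathway list Pdcd4, an inhibitor of the eIF4A helicase, was the 1 gene of 12 to fall (-1.41 ± 0.41, edgeR adjusted p = 0.0312), and the median was -0.03. DESeq2 gave Pdcd4 no adjusted p and limma-voom gave 0.0113. Rheb, the activator of TOR complex 1, was higher in every Chat-pos library, at 103 to 133 CPM against 23.3 to 86.6 CPM, and passed with DESeq2 (adjusted p = 0.047) but not with edgeR (0.71 ± 0.23, adjusted p = 0.0662).

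Targets of the integrated stress response, which rise when eIF2 is phosphorylated, had 7 genes tested, none of which passed with edgeR, DESeq2 or limma-voom (2 higher at an unadjusted p under 0.05; median 0.12). Mitochondrial translation factors had 0 of 9 genes past the test by any of the 3 tools or at an unadjusted p under 0.05, and a median of -0.43. The hypusine enzymes Dhps and Dohh, which modify eIF5A, had 0.27 ± 0.29 and -0.94 ± 0.48, and neither passed by any of the 3 tools or at an unadjusted p under 0.05.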

How the data were processed

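RNA of sorted tuft cells was made into cDNA with SMARTer v4 and Nextera XT libraries and read as single reads, per the labels' protocols. The authors deposited 1 table of raw counts per gene for 8 libraries. Per the submitters' processing notes the build is GRCm38. Aligner, counting program, annotation and strand setting were not given in the sources used here, and these kits do not mark strand. Of 53806 rows, 36 name no gene and were left out, and 229 rows sharing 114 symbols were summed. The rows without a name held 67.8% to 88.4% of each library's counts in Chat-neg and 58.6% to 64.6% in Chat-pos. This share thus differed with the gate, and its part in the results was not tested.

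The factor genes and all gene lists were chosen with earlier results of these data known. Chat-pos was compared with Chat-neg by edgeR 4.0.16 (R 4.3.3; TMM scaling, filterByExpr, quasi-likelihood test, Benjamini-Hochberg adjustment over 8919 genes; biological coefficient of variation 28.1%). CPM are TMM-scaled, except where genes were chosen. The ribosomal protein scale used the summed counts of 78 ribosomal protein genes as library size. DESeq2 1.42.0 and limma 3.58.1 (voom with quality weights), other scalings and filters, a replicate block and left-out libraries were alternatives; an adjusted p that DESeq2 left out is no call. Genes were named by rule when they passed, and so were those over 2-fold on the ribosomal protein scale, the 2 most abundant per kilobase of each role and the largest rise and fall; other genes are named to account for the family and were chosen after their values were seen. The fits were tested on simulated counts. Gene positions, exon lengths and word sharing come from a GRCm38 annotation, and start windows from RefSeq (GRCm38.p6), matched by symbol for 48 of the 60 genes.

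Same-numbered libraries were checked for pairing: their deviations from the group means correlated at 0.053, 0.033, -0.023 and -0.010. As the labels do not name the animals, the numbers were not taken as pairs. Low correlations over 4 libraries per gate cannot exclude shared animals. Replicates of a group differed beyond counting noise in every pair.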

Additional observations from a re-analysis of the deposited data

Results flagged for a closer look

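In 6 of 72 groups of 4 libraries checked, 1 library stood apart from the other 3 by Dixon's test at its 95% critical value, and chance gives about 1 in 20. In Chat-neg replicate 4, Eef1b2 was at 466.9 CPM, against 232.7 to 258.6 CPM in the other Chat-neg libraries. In Chat-neg replicate 1, the shallowest library, Eif4a2 and Eif6 were both at 58.17 CPM, each on 5 counts, against at least 93.0 CPM and 153.7 CPM in the others. Without that library both differences kept their sign, and Eif4a2 passed.

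In Chat-pos replicate 1, Eif3i was at 195.3 CPM against 237.7 to 242.4 CPM, and Eif4ebp1 at 3.733 CPM against 15.57 to 17.96 CPM. In Chat-pos replicate 2, Eif4enif1 was at 24.19 CPM against 32.35 to 33.08 CPM. The part of depth in these values was not tested.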

How the results depend on the processing

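The depth of Chat-neg replicate 1 limits every factor gene, and differences are shares of counts in named genes. The number of factor genes lower in Chat-pos (4) was 7 with limma-voom, 8 with total count scaling, 0 with no filter on low counts, 0 with both Paneth-rich libraries left out and 0 to 7 with single libraries left out. The number higher (2) was 1 with total count scaling, 1 without both Paneth-rich libraries and 1 to 2 with single libraries left out. With no filter 0.435% of all genes were lower and 1.05% higher. Ribosomal protein genes lower (53) numbered 14 with no filter, where 32856 genes were tested, 20 without both Paneth-rich libraries and 32 to 62 with single libraries left out. On the ribosomal protein scale the 24 higher factor genes became 13 without both Paneth-rich libraries and 18 to 27 with single libraries left out, and 0 were lower in every alternative run. Of all genes 29.2% were higher on it without both Paneth-rich libraries and 31.7% to 49.6% with single libraries left out. At most 0.527% of all genes were lower on it in any alternative run. Where no other value shows it, the cause was not tested. Leaving out both Paneth-rich libraries kept only replicates 1 and 4 of Chat-pos, and the part of that smaller group was not tested.

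Eif1 passed in every alternative. Eif4b was lost with DESeq2, Eif4a2 with total count scaling, and the 4 lower genes with no filter. The replicate block kept all 6 calls, with 4 lower and 2 higher, 50 ribosomal protein genes lower, and 26 higher on the ribosomal protein scale; with the block Eif1b was at 0.053 and Eif2b4 at -0.13. Only replicates 1 and 2 of Chat-neg correlated best with their own number.

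Over the named factor genes and alternatives 484 values kept direction and call, 35 lost the call, 7 gained it and 30 changed sign, all of genes that did not pass. Eif1b was at 0.019 with the 5 CPM filter and with RLE scaling, 0.069 with DESeq2, 0.076 with limma-voom, 0.20 with no filter and 0.12 without both Paneth-rich libraries. Eif2b4 was at -0.11 with limma-voom and total count scaling and -0.0096 with upper-quartile scaling. Eif2b2 was at -0.033 with total count scaling, Eif2ak2 at 0.029 with no filter and Eif4enif1 at 0.0014 without both Paneth-rich libraries. With single libraries left out, the ranges that crossed 0 were -0.19 to 0.20 (Eif1b), -0.27 to 0.35 (Eif2b4), -0.086 to 0.25 (Eif2b2), -0.31 to 0.015 (Eif2ak2), -0.39 to 0.091 (Eef1a1), -0.34 to 0.057 (Eef1b2), -0.13 to 0.41 (Eef1e1), -0.029 to 0.49 (Eif4a3), -0.021 to 0.33 (Eif4e) and -0.42 to 0.015 (Eif4ebp1). Subtracting the mean receptor gene count, which rounds to 0 in each library, changed nothing by construction. The values of that setting are among the 484 that kept direction and call.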
